A study of Mus musculus with 3 samples.

Results

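Neurotrophins and Gdnf are secreted growth factors that act on developing neurons through receptor tyrosine kinases. The set described here has 8 genes, namely the ligands Bdnf, Ntf3 and Gdnf, the kinases Ntrk2, Ntrk3 and Ret, the p75 receptor Ngfr and the Gdnf co-receptor Gfra1. Its members are the peaks whose deposited gene name equals one of these symbols, in a list of places where the zinc finger transcription factor Sp9 was recovered from chromatin. There were 24 such peaks of 19979 in the list, and every one of the 8 genes had at least 1. The rule that picks the peaks uses gene names and no score, but the 8 genes themselves were chosen with earlier results of these data known.

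Chromatin immunoprecipitation with sequencing recovers DNA that is bound, directly or through other proteins, by the protein an antibody recognises. Here the chromatin came from olfactory bulbs of CD1 mice, an outbred strain, taken at postnatal day 0 to 2 and fixed for 10 min in formaldehyde. Immunoprecipitation with a homemade antibody against Sp9 gave 2 libraries, and 1 library without antibody served as the input; the labels name no treatment or mutation in either. The series concerns Sp8 and Sp9 in the formation of olfactory bulb interneurons, and the single list analysed holds 1 interval, 1 score and 1 gene name for each peak shared between the immunoprecipitations. It gives no value per library, so no peak has an error between replicates, the depth of the libraries is unknown and no comparison between groups could be tested. Below, a gene and the peaks that bear its name are called linked, which does not place a peak in a promoter, an intron or another part of that gene, and a link does not show whether the gene was transcribed.

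As background, Bdnf signals through Ntrk2 (TrkB) and Ntf3 mainly through Ntrk3 (TrkC), while Ngfr binds all neurotrophins and their precursors. Gdnf binds Gfra1, a receptor held on the membrane by a lipid anchor, and this pair activates Ret or, in cells that lack Ret, the adhesion molecule Ncam1. In the rodent olfactory system, Bdnf and Gdnf are known to act on the neuroblasts that migrate to the bulb and become its interneurons.

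The 8 genes had many linked peaks, most of them with low scores. A linked peak was present for 8 of 8 genes, beside 53.2% of the 21900 protein-coding genes. At least 2 peaks were linked to 7 of the 8 genes (14.9% of coding genes, and 28.1% of those with any peak). At least 3 were linked to 5 of the 8 (5.42% of coding genes, and 10.2% of those with any peak). These are counts of peaks as listed. With peaks within 1000 bp of each other joined, Ntf3 and Ntrk2 had only 2 places each and left this count. The mean was 3 peaks per gene, against 0.787 over all coding genes and 1.48 over those with any peak. The scores ranked low: 6 of the 24 peaks (25%) lay at or above the median score of the list, a line that 50% of all peaks reach by construction. The median score of the 24 peaks was 139.65, against 210.06 over all peaks. A peak at or above the median, called an above-median peak below, was linked to 4 of the 8 genes, namely Ret, Ntrk3, Gdnf and Bdnf, beside 34.1% of all coding genes and 64% of the coding genes that had any peak. A peak in the upper quartile (a score of at least 353.56) was linked to Ret and Ntrk3, which is 2 of 8. Such a peak was linked to 18.5% of all coding genes, or to 4052 of the 11652 that had any peak. The score is the authors' own, with a formula not stated in the labels or the file, and it serves only to rank peaks within the list.

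**Figure D1:**
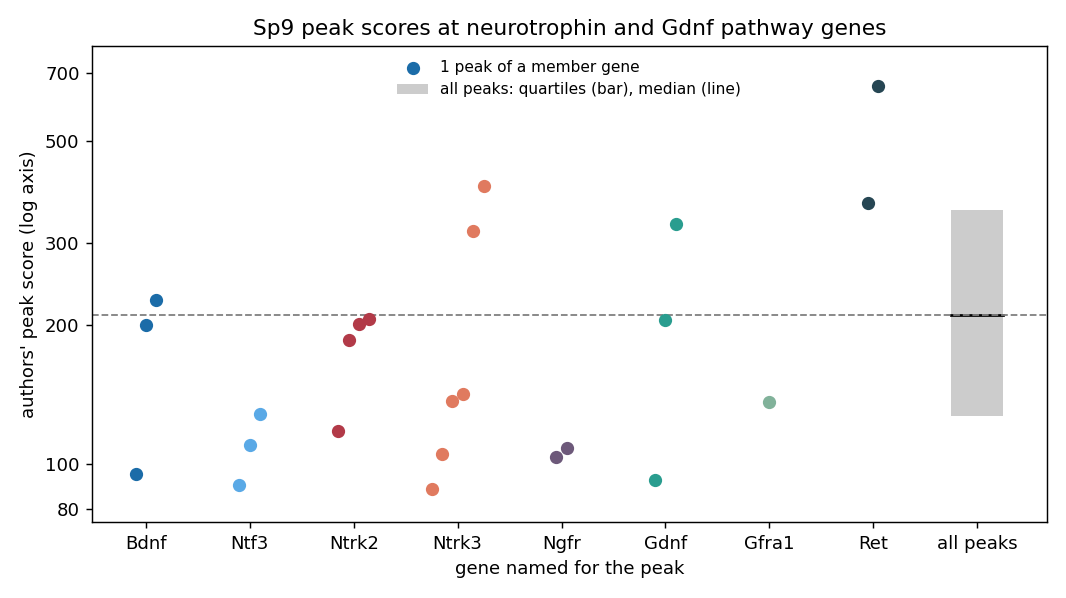
Authors' peak score (log axis, no unit) of each of the 24 peaks, by the gene named for it; each point is 1 peak. The grey bar spans the quartiles of all 19979 peaks and the dashed line marks their median of 210.06, which 6 of the 24 points reach, 2 of them at Ret, 2 at Ntrk3, and 1 each at Gdnf and Bdnf.

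Promoter sequences are shown for the 6 genes with an entry in the RefSeq promoter table, each with 250 bases before and 50 after a transcription start. They are shown because proteins of the Sp and Klf families are known to bind the GC box (GGGCGG, or CCGCCC on the opposite strand) and the related CACC box (GGGTGG, or CCACCC), and capitals mark these letters on either strand. Where a gene had several promoters, the one with the most GC boxes is shown, or the most upstream one when they tied.
Bdnf promoter, chr2:109676782-109677081 (GRCm38.p6, plus strand): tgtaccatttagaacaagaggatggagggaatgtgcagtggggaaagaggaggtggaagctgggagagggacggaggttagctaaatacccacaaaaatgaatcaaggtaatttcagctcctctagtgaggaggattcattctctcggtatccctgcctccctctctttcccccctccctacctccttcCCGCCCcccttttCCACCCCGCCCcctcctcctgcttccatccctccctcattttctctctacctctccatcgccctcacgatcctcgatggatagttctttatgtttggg
Ntf3 promoter, chr6:126164911-126165210 (GRCm38.p6, minus strand): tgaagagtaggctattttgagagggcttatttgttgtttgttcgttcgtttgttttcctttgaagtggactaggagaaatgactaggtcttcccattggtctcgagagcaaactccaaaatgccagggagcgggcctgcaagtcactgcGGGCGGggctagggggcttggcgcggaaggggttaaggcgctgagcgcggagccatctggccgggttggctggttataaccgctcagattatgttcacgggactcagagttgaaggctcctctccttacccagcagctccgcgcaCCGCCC
Ntrk2 promoter, chr13:58806319-58806618 (GRCm38.p6, plus strand): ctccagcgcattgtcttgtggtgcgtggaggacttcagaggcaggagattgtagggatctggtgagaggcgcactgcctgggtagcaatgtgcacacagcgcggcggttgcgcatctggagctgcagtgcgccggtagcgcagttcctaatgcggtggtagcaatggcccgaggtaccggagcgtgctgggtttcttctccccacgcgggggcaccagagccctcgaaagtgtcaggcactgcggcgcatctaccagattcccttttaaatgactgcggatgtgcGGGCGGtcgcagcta
Ngfr promoter, chr11:95587649-95587948 (GRCm38.p6, minus strand): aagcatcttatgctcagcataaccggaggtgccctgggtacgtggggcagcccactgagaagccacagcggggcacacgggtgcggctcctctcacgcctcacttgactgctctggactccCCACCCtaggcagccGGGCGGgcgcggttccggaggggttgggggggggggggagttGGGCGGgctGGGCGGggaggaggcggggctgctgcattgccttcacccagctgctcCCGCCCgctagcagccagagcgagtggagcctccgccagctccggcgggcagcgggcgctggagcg
Gdnf promoter, chr15:7809798-7810097 (GRCm38.p6, plus strand): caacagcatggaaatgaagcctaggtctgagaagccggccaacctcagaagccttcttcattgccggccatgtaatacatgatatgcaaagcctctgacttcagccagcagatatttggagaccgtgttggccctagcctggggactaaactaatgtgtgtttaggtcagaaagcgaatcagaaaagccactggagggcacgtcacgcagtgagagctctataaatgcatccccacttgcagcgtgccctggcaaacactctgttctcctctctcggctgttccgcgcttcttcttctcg
Gfra1 promoter, chr19:58455349-58455648 (GRCm38.p6, minus strand): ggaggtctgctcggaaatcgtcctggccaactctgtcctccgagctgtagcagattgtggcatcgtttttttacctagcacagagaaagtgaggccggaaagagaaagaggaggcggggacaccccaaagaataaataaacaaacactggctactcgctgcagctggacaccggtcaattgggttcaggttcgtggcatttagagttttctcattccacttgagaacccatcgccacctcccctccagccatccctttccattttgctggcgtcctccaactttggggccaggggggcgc

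Letters of the GC box stood in 6 of the 14 promoters of these 6 genes, and those of the CACC box in 5. Over all 32851 promoters of the table, 35.7% held a GC box and 31.5% a CACC box; matches may overlap, as the CACC box and a GC box of Bdnf do. The Ngfr promoter held 4 GC boxes, more than 94.5% of all promoters, and Ngfr had the lowest of the 8 highest scores. Bdnf had 7 promoters in the table, of which 2 held a GC box and 3 a CACC box. Both Ntf3 promoters and the Ntrk2 promoter held at least 1 GC box. Neither promoter of Gdnf and not the Gfra1 promoter held either box, and this says only that the letters are not in these 300 bases. The peaks are in build mm9 and the promoters in another build, so whether a peak covers any of these sequences was not determined.

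Bdnf and Ntf3, the Trk ligands of the set, had 3 peaks each, with modest to low ranks. Bdnf, which promotes survival and maturation of neurons, had scores of 95.51, 226.15 and 199.64 on chromosome 2, from 109475409 to 109476050, from 109517133 to 109518323 and from 109533262 to 109534617 (all positions are mm9). Its highest peak ranked above 53.6% of all peaks, and the peak of 199.64 ranked above 47.7%. These higher-scoring peaks lay 14.9 kb apart, and the low one lay 41.1 kb from them. The peak of 199.64 was wide for its rank: it measured 1355 bp, and 93.5% of the 1873 peaks with a score within 10% of it were narrower.

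Ntf3, the neurotrophin that Ntrk3 binds, had scores of 109.93, 128.59 and 90.47, on chromosome 6 from 125974323 to 125974986, from 125975083 to 125975761 and from 126113610 to 126114306. All 3 lay below the list's median, and the highest ranked above 25.7% of all peaks. The first and second were separated by only 97 bp, whereas the third lay 138 kb away. Among the 660 coding genes with exactly 3 peaks, 3.03% had a lower highest score than Ntf3, 24.7% a lower one than Bdnf and 47.9% a lower one than Gdnf.

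Trk receptor genes had the most peaks of the set as listed. Ntrk2, the Bdnf receptor kinase, had 4 peaks with scores of 206.28, 200.77, 118.05 and 185.34 along chromosome 13. The first 3 formed a run from 58907658 to 58910289 with gaps of 267 and 180 bp, and the fourth lay 298 kb further, from 59208643 to 59209516. All 4 were under the median of 210.06, the best of them ranking above 49.1% of all peaks. Of the 258 coding genes with 4 peaks, 9.69% had a lower highest score, and their median was 408.06. This class counts the run as 3 peaks. With peaks within 1000 bp of each other joined, Ntrk2 had 2 separate places, fewer than Bdnf and Gdnf with 3 each.

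Ntrk3, the Ntf3 receptor kinase, had 6 peaks, the most of the 8 genes. Along chromosome 7 their scores were 137.16, 398.24, 142.14, 319.61, 105.27 and 88.42. The highest, from 84799172 to 84800124, ranked above 80% of all peaks, and the one of 319.61, from 85560798 to 85561822, above 70.4%. These were the only above-median peaks of Ntrk2 and Ntrk3, and the other 4 ranked above 5.28 to 30.9% of all peaks. The 6 peaks spanned 1052771 bp without a peak of another name between them, a span longer than that of 98% of the 3265 coding genes with at least 2 peaks on 1 chromosome. The median span of those genes was 34.5 kb.

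Ngfr, the p75 receptor, had 2 low peaks on chromosome 11. Their scores were 103.50, from 95431727 to 95432711, and 108.22, from 95448453 to 95449358. Both ranked low, above 14.1% and 16.2% of all peaks, and of the 2081 coding genes with 2 peaks only 2.69% had a lower highest score. The peaks were wide for their rank, since 89.5% and 77% of the peaks with a score within 10% of theirs were narrower.

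The Gdnf ligand and its signalling receptor ranked higher than most of the neurotrophin genes. Gdnf had scores of 329.59, 204.68 and 92.62 on chromosome 15, from 7760189 to 7761370, from 7765100 to 7766193 and from 7799025 to 7800004. The highest ranked above 72% of all peaks, and the scores declined in order of position, with gaps of 3.73 and 32.8 kb.

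Ret, the kinase that Gdnf family ligands activate, had the highest score of the set. Its peaks scored 657.10 and 365.86 on chromosome 6, from 118146426 to 118147882 and from 118164830 to 118165988. They ranked above 94.4% and 76.5% of all peaks, so Ret was the only one of the 8 genes with every linked peak in the upper quartile. Its highest score exceeded that of 89% of coding genes with 2 peaks and of 92.1% of all coding genes with any peak.

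Gfra1, the co-receptor that presents Gdnf to Ret, was the only gene with a single peak. That peak scored 136.52 on chromosome 19 from 58527699 to 58529407 and ranked above 29% of all peaks. It was also the widest of the 24, at 1708 bp, and 99.8% of the 2177 peaks with a score within 10% of it were narrower. The set ranged down to 516 bp at Ntrk3, with a median of 889 bp against 986 bp over all peaks.

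Set against coding genes with the same number of peaks, 7 of the 8 genes had a highest score under the median of their class, and Ret was the exception. The highest score was larger for coding genes with more peaks, with a median of 248.72 for coding genes with 1 peak, 311.22 with 2, 339.06 with 3 and 477.04 with 6. Ntf3, Ntrk2, Ngfr and Gfra1 fell below even the lower quartile of their classes, and Bdnf (226.15) lay just under it (226.56). The median of the 8 highest scores, 216.22, exceeded that of 37.2% of the linked coding genes. These counts describe 8 genes that were chosen with earlier results in view, and no test was made of them.

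**Figure D2:**
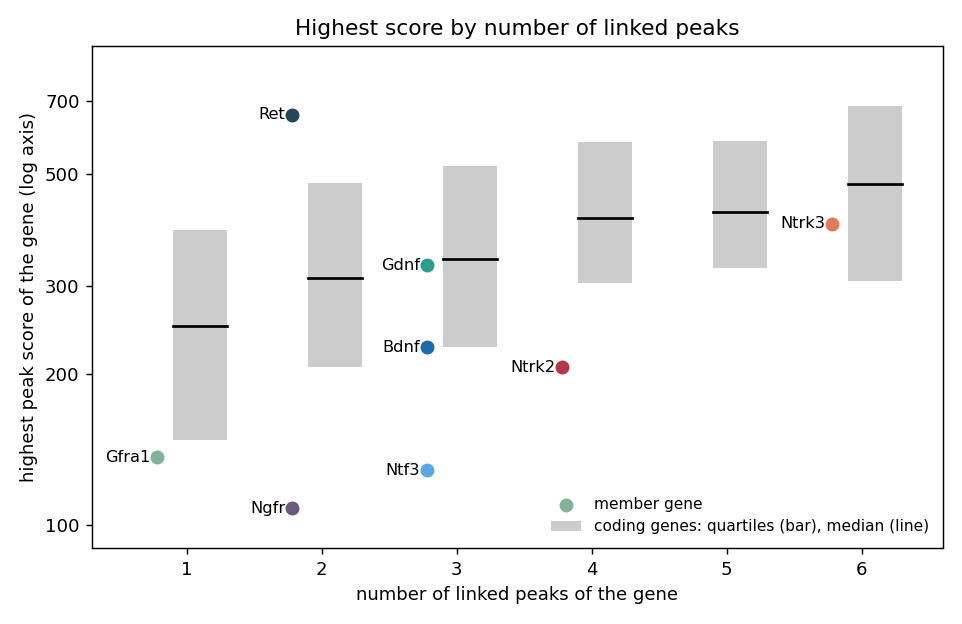
Highest peak score of a gene (log axis) against its number of linked peaks. Coloured points are the 8 named genes, and grey bars with a black line give the quartiles and median of all coding genes with that number; Ret at 657.10 lies above the bar of its class Ntf3, Ntrk2, Ngfr and Gfra1 lie below theirs, and Bdnf lies at the lower edge of its bar.

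Closely spaced peaks occurred at 3 of the 8 genes. Of the 24 peaks, 7 (29.2%) had another peak within 1000 bp, beside 7.93% of all peaks. In that list 8383 of 11652 linked coding genes had 1 peak, and the share for genes with several peaks was not computed. The 7 close peaks belonged to Ntrk2 (3 peaks), Ntf3 (2) and Ntrk3 (2). Joining them gave 20 separate places, with 2 at Ntrk2, 2 at Ntf3 and 5 at Ntrk3. No peak with another gene name lay between the peaks of the 7 genes with at least 2, which was likewise so for 99.2% of the 3265 such coding genes and is no trait of these genes.

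At 5 of the 8 genes, at least 1 of the peaks next to the gene scored higher than the gene's own highest peak, close to the 59.6% of 11607 linked coding genes with a neighbour at least as high. The highest peak exceeded the nearest peak of another name on both sides at Ret, Gdnf and Ntrk3, the other 3. Among above-median peaks only, this held for 2 genes, and among upper-quartile peaks only for 0, so it depends on which peaks are kept. At Ret the neighbours were Csgalnact2 (275.71) and Bms1 (181.41), at distances of 56.7 and 203 kb. At Ngfr they were Nxph3 (731.83), 55.2 kb away, and Phb (241.98), 57.2 kb away, both far above the 108.22 of Ngfr itself. At Ntrk2 they were Rmi1 (749.62) and Agtpbp1 (391.13), at distances of 403 and 448 kb.

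Of the remaining 5 genes, Bdnf, Ntf3 and Gfra1 exceeded 1 of their neighbours each, and Gdnf and Ntrk3 exceeded both. Bdnf stood between Kif18a (185.09) and Lin7c (246.71), and Ntf3 between Cd9 (181.26) and Kcna5 (98.65). Gfra1 stood between Atrnl1 (146.01), 810 kb away, and Ccdc172 (115.85), 56.9 kb away. Gdnf had Egflam (246.58) and Wdr70 (179.97) beside it, and Ntrk3 had Agbl1 (209.62) and Det1 (177.17). The rule by which the authors gave a peak its name is not stated, so a peak far from any gene could bear either neighbour's name.

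**Figure D3:**
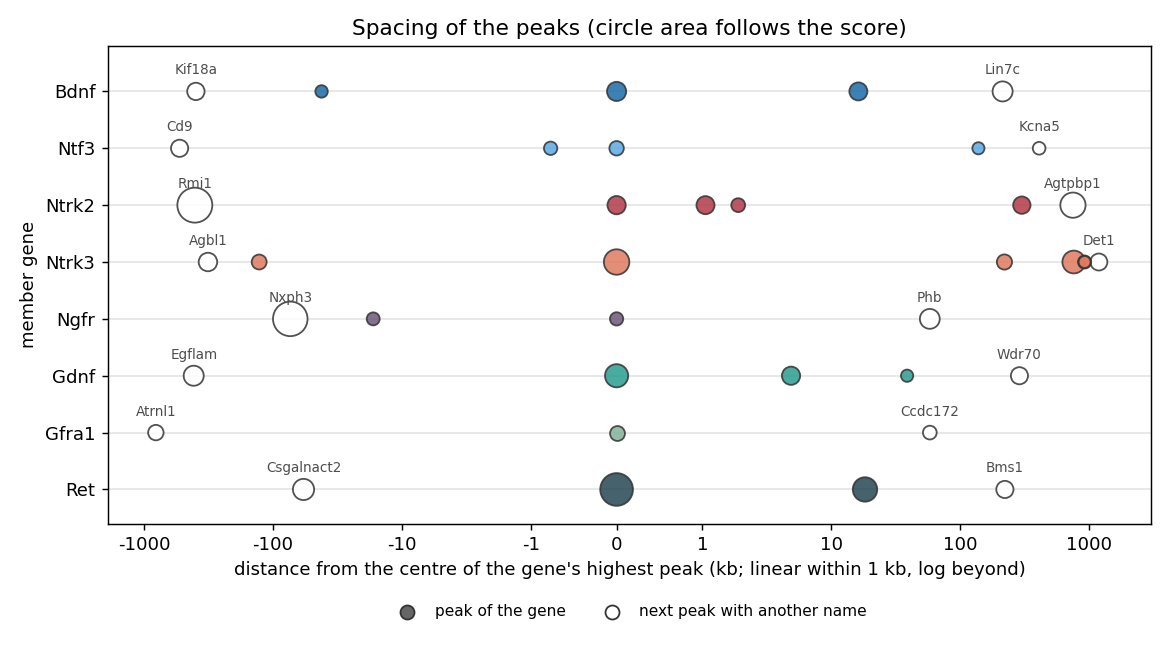
Distance of each peak from the centre of its gene's highest peak (kb, linear within 1 kb and logarithmic beyond), 1 row per gene. Filled circles are peaks of the gene, open circles the nearest peak with another name on each side, and circle area follows the score; the runs at Ntrk2 and Ntf3 sit within 2 kb, whereas the peaks of Ntrk3 reach 924 kb from its highest one.

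The rest of the pathway, a list of 48 further genes, was also linked often, but with fewer and higher peaks per gene. At least 1 peak was linked to 40 of the 48 genes (83.3%) and an above-median peak to 29 (60.4%), beside 53.2% and 34.1% of coding genes. These genes had 1.5 peaks each on average, against 3 for the 8 genes described above, and the median highest score of the linked ones was 355.77, against 216.22. No test was made of this difference.

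Ntf5, the neurotrophin that shares Ntrk2 with Bdnf, had 2 peaks with a highest score of 184.32, under the list's median. The sortilin family, in which some members sort proneurotrophins, gave a wider range. Among the sortilins, Sort1 had 1 peak of 457.69 and Sorcs2 1 of 640.35, whereas Sorcs3 had 8 peaks of up to 679.31 and Sorcs1 9 of up to 357.98.

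Each Gdnf family ligand is known to prefer 1 co-receptor, and these pairs were linked together or not at all. Gdnf and Gfra1 were linked, as were Nrtn (3 peaks, up to 535.51) with its co-receptor Gfra2 (123.81), and Artn (2 peaks, up to 168.51) with Gfra3 (154.13). Pspn and its co-receptor Gfra4 had no peak in the list. In all 3 linked pairs the co-receptor had 1 peak with a score under the median and under the highest score of its ligand. Over all coding genes 53.2% were linked, and 8383 of these 11652 had 1 peak. Coding genes with 1 peak had lower highest scores in general, with a median of 248.72, against 311.22 with 2 peaks and 339.06 with 3. The ligands had 2 or 3 peaks, so a lower co-receptor score is no particular trait of these pairs. Gfral, the receptor for a distant relative of Gdnf, also had none. Of the alternative Gdnf receptors, Ncam1 had 1 peak of 706.41, the highest score of the whole pathway and above 95.6% of all peaks, and Sdc3 had 3 of up to 353.56. The pairing was noticed after the values had been seen, over 4 pairs.

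Adaptors and partners of the receptors mostly had 1 peak, as did linked coding genes in general (8383 of 11652), so this is no trait of these roles. Of the 19 tyrosine kinase adaptors, 17 were linked, 14 of them to an above-median peak, and 13 had exactly 1 peak. Over all coding genes 53.2% were linked, and 64% of the linked ones had an above-median peak. The highest were Gab1 (540.61) and Gab2 (498.01), docking proteins that recruit further signalling molecules, Sos1 (539.16), an activator of Ras, and Plcg1 (480.41), a phospholipase. The adaptor Shc1 and Rapgef1, an activator of Rap1, had no peak. Of the 8 partners of the p75 receptor, 6 were linked, all to above-median peaks, beside the same shares of 53.2% and 64%. They were led by Prdm4 (593.55), a zinc finger protein that binds the receptor. Lingo1 (430.87) and Rtn4r (371.69), which form a complex with it that limits axon growth, and the adaptor Traf6 (289.48) came next, while Maged1 and Zfp110 had none. Among the secretory and extracellular proteases that process proneurotrophins, Pcsk6 (598.07) and Furin (584.22) ranked above 92.6% and 92.1% of all peaks. Pcsk5 (182.10) and Pcsk1 (168.28) were under the median, and Plat, the tissue plasminogen activator, had no peak. As the depth is unknown, an absent peak shows only that none was listed.

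**Figure D4:**
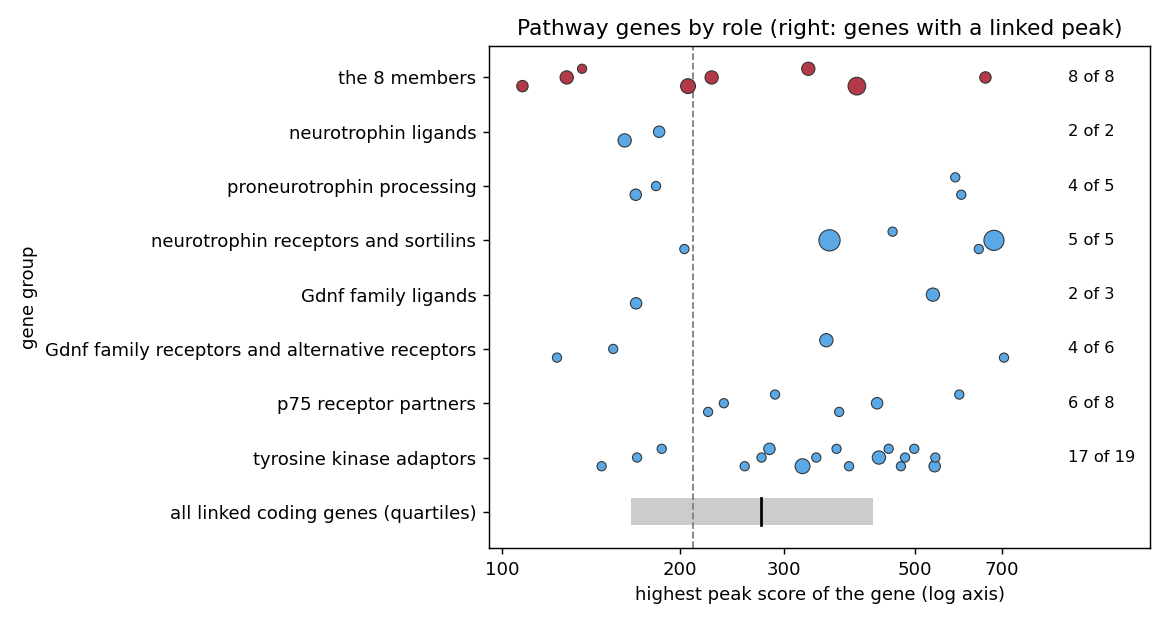
Highest peak score (log axis) of each linked gene by role, with the 8 named genes in red and the 48 further pathway genes in blue; point size follows the number of peaks and the numbers on the right count linked genes of all in the group. The dashed line is the median of all peaks (210.06) and the grey bar the quartiles of all linked coding genes. Right of the line lie 14 of the 19 adaptors (17 of them linked) and 4 of the 8 named genes, all linked. The share was 34.1% of all coding genes and 64% of the linked ones.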

How the data were processed

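Sp9 peaks from neonatal mouse olfactory bulb were analysed from 1 table. The deposited table gives a peak score that the authors computed, of unstated formula, with chromosome, start and end (other values, deposited as positions in mm9) and a gene name. Bowtie2 2.2.4, MACS 1.4.2 and mm9 are named, without roles or settings, in the submitters' processing notes. Not given in the sources used here are whether peaks were called per library or on pooled reads, when a peak counted as shared, and whether the 2 immunoprecipitations came from separate litters.

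Peaks were taken by exact gene name with pandas 2.3.3. Background shares are of the 21900 coding symbols in a RefSeq gene table (GRCm38.p6), used for names only; of 13383 listed names, 12806 equalled a symbol of any gene class. Width is end minus start, and ranks are shares of peaks with a lower score. Promoter sequences are RefSeq's (GRCm38.p6). Functions for counting, merging and ranking were tested on simulated data.

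The 8 genes and the wider list were chosen with earlier results of these data known. Named are all 8 genes and the peaks beside them, every further ligand and receptor, and in other roles up to 4 genes with the highest scores and those without a peak. Not every gene so chosen is reported here. Alternatives were score thresholds, merging, synonyms, and leaving out unplaced sequences.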

Additional observations from a re-analysis of the deposited data

How the results depend on the processing

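Joining peaks of 1 name within 1000 bp left 20 peaks at the 8 genes, and the median rank of their highest scores, 51.3% of all peaks as deposited, became 50.2% because the list itself was shorter (19237 peaks). With above-median peaks only, 4 genes and 6 peaks remained; with upper-quartile peaks only, 2 genes, 3 peaks, 2 genes with an above-median peak, a median rank of 48.8% and 21 of the 48 further genes remained, and the genes that exceed both neighbouring peaks numbered 2 and 0 in place of 3, all by construction of fewer peaks. Matching names through a unique synonym gave a background of 55.4% of coding genes with a linked peak and 35.4% with an above-median one, in place of 53.2% and 34.1%, and changed no count at the 8 genes; leaving out unplaced sequences changed none either. Leaving out a library and another overlap between libraries were not run, because the list holds no peaks or values per library. No paired analysis was possible because values per library are missing from the list and the input is 1 library. The unknown depth limits every statement on absent peaks.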
